A study of Homo sapiens with 12 samples.

Results

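The genes described are 10 of the 60664 in the deposited count table, chosen by name as collagen crosslinking and hydroxylation enzymes. They are the lysyl oxidases LOX, LOXL1, LOXL2 and LOXL3, the lysyl hydroxylases PLOD1 and PLOD3, the prolyl 4-hydroxylase catalytic subunits P4HA1 and P4HA2, the transglutaminase TGM2 and the collagen chaperone SERPINH1, which is a folding helper and not an enzyme. All 10 were found by symbol, and all 10 passed the low-count filter, which kept 17960 genes. RNA was sequenced from SK-N-SH, an established human neuroblastoma cell line, on surfaces of 1, 8 or 30 kPa, with 4 libraries at each stiffness. The kilopascal (kPa) is a unit of elastic modulus, and the series asked how surface stiffness relates to expression in these cells. The labels give all 3 groups the same line name, with no genotype, treatment or culture time, and differ between groups in stiffness. They do not say whether the 4 libraries of a group came from separate cultures, so p-values measure the spread between these libraries, which may be technical.

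Fibrillar collagen is modified in a fixed order. In the endoplasmic reticulum, prolyl 4-hydroxylases hydroxylate proline so that the triple helix is stable at body temperature, lysyl hydroxylases hydroxylate lysine, and SERPINH1 (HSP47) holds the folded helix. After secretion, lysyl oxidases oxidise lysine and hydroxylysine in collagen and lysine in elastin, and the products join neighbouring chains. TGM2 makes a different bond, between glutamine and lysine, and acts on fibronectin and other matrix proteins as well as inside the cell. The enzymes are of interest on surfaces of different stiffness because crosslinks stiffen a matrix, and LOX and P4HA1 are also known targets of hypoxia signalling.

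Library totals were 14.32 to 15.9 M counts in the 1 kPa group (M for mega), 14.95 to 25.35 M in the 8 kPa group and 23.9 to 27.82 M in the 30 kPa group. The 5 libraries under 20 M were the 4 at 1 kPa and 8 kPa replicate 1. Depth class and stiffness therefore cannot be told apart between 1 and 30 kPa, and the 8 kPa group spans both classes. Only 8 kPa replicate 1 was in the shallow class (under 20 M) at 8 kPa. Results within that class, or adjusted for depth class, rest on this 1 library. Levels are in CPM, a gene's count per M counts of its library after scaling by TMM. Of 7 adrenergic neuroblastoma markers, 6 passed the low-count filter, and the seventh, TH, was absent from all but 1 library. All 7 mesenchymal neuroblastoma markers passed. The summed level of the 4 immune markers was at most 0.718 CPM in any library, and that of the 4 endothelial markers at most 10.3 CPM. The 7 fibroblast markers, which mesenchymal cells also express, summed to 2070 to 2660 CPM.

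None of the 10 genes passed an adjusted p of 0.05 in any comparison of stiffness, in a fit that treats the libraries as unpaired. With the replicate number as a block, P4HA2 and LOXL3 were called, as given in the last paragraph. Between 8 and 1 kPa, 0 of 10 passed, where 13.8% of all tested genes did (8.17% higher and 5.60% lower at 8 kPa). Between 30 and 8 kPa, 0 of 10 passed, as did 0% of tested genes, although 3218 of 17960 genes had an unadjusted p under 0.05 in the edgeR test. Between 30 and 1 kPa, 0 of 10 passed, where 2.43% of tested genes did (1.10% higher and 1.33% lower at 30 kPa). In the test of any difference over the 3 stiffnesses the background was 9.16%, and in the test of 8 kPa against the mean of 1 and 30 kPa it was 7.08%, again with 0 of 10 passing. At an unadjusted p under 0.05, 1 of the 10 passed in each pairwise comparison, against a background of 31.2% for 8 against 1 kPa, 17.9% for 30 against 8 kPa and 18.9% for 30 against 1 kPa. The fold changes of the 10 genes between 8 and 1 kPa were negative for 9 and positive for 1, with a median log2 fold change of -0.12 beside -0.01 over all tested genes. Between 30 and 8 kPa they were positive for 7 and negative for 3 (median 0.12, against 0.00372 over all tested genes). Between 30 and 1 kPa they were positive for 4 and negative for 6 (median -0.08, against 2.06e-05).

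**Figure D1:**
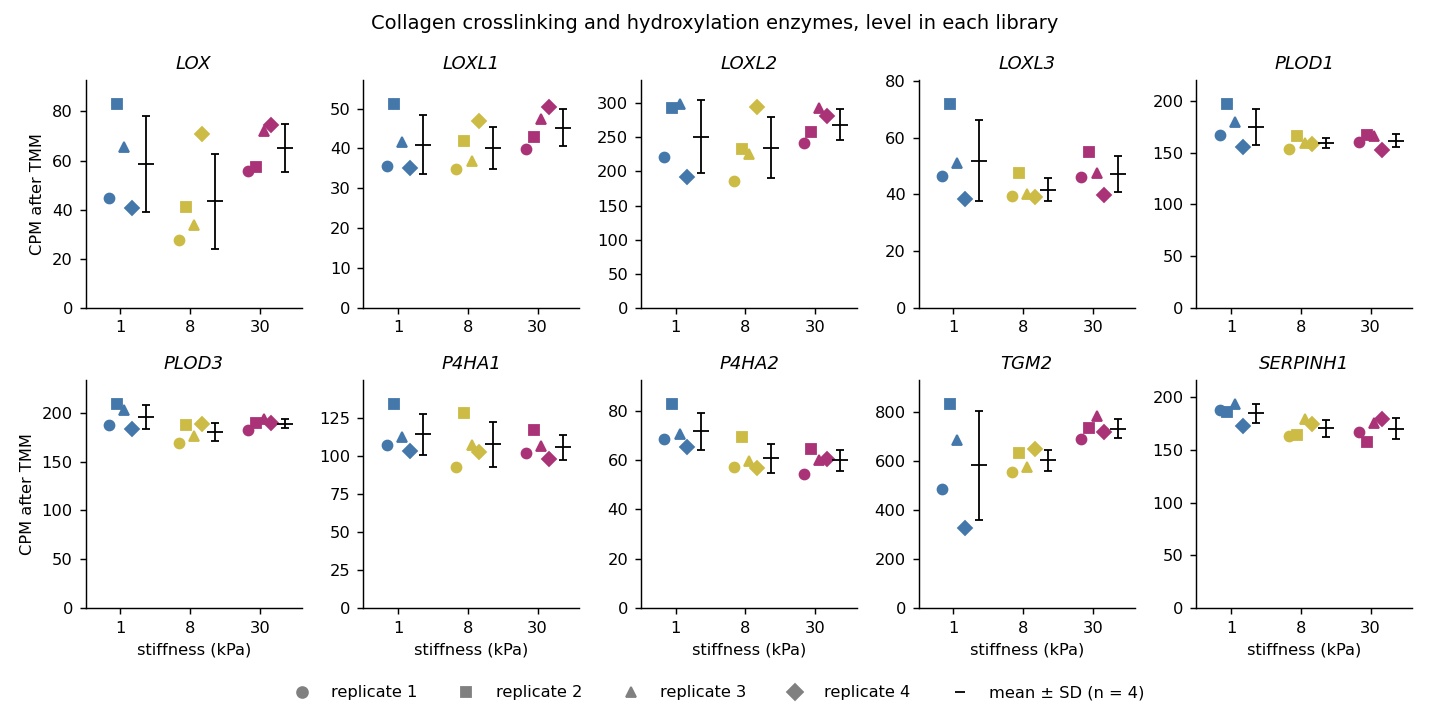
CPM after TMM scaling (vertical axis, from 0) by stiffness in kPa (horizontal axis) for each of the 10 genes. Symbols are single libraries by replicate number and black bars are mean ± SD of 4 libraries. LOX and TGM2 have wide spread at 1 kPa, where TGM2 ran from 325 to 831 CPM, and P4HA2 at 30 kPa lies under all 1 kPa libraries.

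LOX, the prototype lysyl oxidase (GRCh38, chromosome 5, 122063195 to 122078360, minus strand), varied widely between libraries of one stiffness. Replicates 1 to 4 had 44.8, 83.0, 65.3 and 40.8 CPM on the 1 kPa surface. They had 27.6, 41.1, 33.6 and 70.9 CPM on the 8 kPa surface, and 55.9, 57.3, 72.1 and 74.6 CPM on the 30 kPa surface. The lowest values of all were in 8 kPa replicates 1 and 3, but 8 kPa replicate 4 was as high as the 30 kPa libraries, so the groups overlapped in every pair. Means were 58.5 ± 19.6, 43.3 ± 19.2 and 65.0 ± 9.76 CPM (SD, n = 4 each). The log2 fold change was -0.42 (SE 0.262) for 8 against 1 kPa, with an adjusted p of 0.289 and a 95% interval from -0.985 to 0.139. For 30 against 8 kPa it was 0.58 (SE 0.258), the one unadjusted p under 0.05 of the 10 genes (0.0415), with an adjusted p of 0.259 and an interval from 0.0255 to 1.13. Between 30 and 1 kPa the value was 0.15 (SE 0.259, adjusted p 0.804), and 8 kPa differed from the mean of 1 and 30 kPa by -0.50 (SE 0.229, adjusted p 0.173). These values depended on single libraries. Without 8 kPa replicate 4 the log2 fold change was -0.77 for 8 against 1 kPa (adjusted p 0.0259) and 0.93 for 30 against 8 kPa (adjusted p 0.0307). For 8 against 1 kPa it was -0.21 without 1 kPa replicate 2 (adjusted p 0.665) and -0.27 without 8 kPa replicate 1 (adjusted p 0.552). Among the 5 shallow libraries the value was -1.07 for 8 against 1 kPa, with 8 kPa replicate 1, the lowest LOX library, alone for its group. Among the 7 deep libraries it was 0.43 (SE 0.213, adjusted p 0.381) for 30 against 8 kPa.

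LOXL1 and LOXL2 followed the LOX pattern between libraries but with smaller differences. LOXL1 acts mainly on elastin. Its levels were 35.2 to 51.1 CPM at 1 kPa, 34.9 to 46.9 at 8 kPa and 40.0 to 50.3 at 30 kPa (means 40.9 ± 7.40, 40.1 ± 5.39 and 45.2 ± 4.63 CPM). The log2 fold changes were -0.02 for 8 against 1 kPa, 0.17 for 30 against 8 kPa and 0.14 for 30 against 1 kPa, with adjusted p of 0.914, 0.469 and 0.562. LOXL2, which crosslinks collagen IV in basement membranes and collagen I, was the most abundant lysyl oxidase at every stiffness. Its 1 kPa libraries had 221, 294, 299 and 192 CPM, its 8 kPa libraries 186, 233, 225 and 295 CPM, and its 30 kPa libraries 242, 258, 293 and 281 CPM. All 3 groups overlapped, and the group means, 251 ± 53.4, 235 ± 44.8 and 269 ± 22.7 CPM, lay within the spread of the libraries. Its log2 fold changes were -0.10 (SE 0.146, adjusted p 0.692), 0.19 (SE 0.146, adjusted p 0.501) and 0.10 (SE 0.146, adjusted p 0.777) in the same order.

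LOXL3, a lysyl oxidase of collagens and fibronectin matrix, stood at 46.5, 71.8, 51.0 and 38.5 CPM at 1 kPa. At 8 kPa it was 39.4, 47.6, 40.3 and 39.1 CPM and at 30 kPa 46.3, 54.9, 47.7 and 39.7 CPM. The 1 kPa group held both the lowest and the highest of the 12 values and overlapped both others. The log2 fold change was -0.32 (SE 0.151, adjusted p 0.168) for 8 against 1 kPa, with a 95% interval from -0.642 to 0.00634, then 0.18 (adjusted p 0.549) and -0.14 (adjusted p 0.676). Without 1 kPa replicate 4, the lowest library, the 8 against 1 kPa change passed (adjusted p 0.039). LOXL4, the remaining family gene, was at 0.664 to 1.68 CPM. All its 30 kPa libraries were above all its 8 kPa libraries (background for such a separation 4.79% higher and 6.50% lower), and the log2 fold change was 0.53 (SE 0.199, adjusted p 0.203).

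Sequences before the transcript start are shown for LOX, LOXL3 and P4HA1. Of the 8 members with a window, only LOX and LOXL3 had repeated matches to a searched motif. The motifs were ACGTG (the core of the hypoxia response element) and GGAATG (the core of TEAD binding sites). The 250 bases before the start were taken from RefSeq on GRCh38.p14, both strands were searched, and 8 of the 10 genes matched a window. LOX had 4 matches to ACGTG or its reverse complement CACGT in the 250 bases. Of 35114 windows of that length, 18.5% held at least 1 such match and 0.669% held 4 or more. LOXL3 had 2 matches to GGAATG (11.9% of windows held at least 1 and 0.94% held 2 or more). P4HA1 had 1 match to ACGTG, and LOXL1, PLOD1, PLOD3, P4HA2 and SERPINH1 had none of either. A match is a description of the letters and not a site. Part of the 250 bases is annotated as exon in GENCODE v29 for LOX (101 bases), LOXL3 (126) and P4HA1 (108). All 250 bases are exon for LOXL1, PLOD3 and P4HA2, 197 for SERPINH1 and 23 for PLOD1. The P4HA2 window (chr5:132227042-132227341) lies inside the gene, away from its annotated 5′ end at 132295315. The LOXL3 window (chr2:74553893-74554192) also lies inside its gene, whose annotated 5′ end is at 74555690. The LOXL3 stretch shown is therefore within the gene and not upstream of it. Windows of LOXL1, PLOD1 and PLOD3 lie inside their genes as well. For LOX, LOXL3 and P4HA1 the stretch outside exons is shown, 5′ to 3′ on the gene's strand with motif matches in capitals. It holds 2 of the 4 matches of LOX (chr5:122078361-122078509), both of LOXL3 (chr2:74553962-74554085) and none of P4HA1 (chr10:73096975-73097116).
LOX: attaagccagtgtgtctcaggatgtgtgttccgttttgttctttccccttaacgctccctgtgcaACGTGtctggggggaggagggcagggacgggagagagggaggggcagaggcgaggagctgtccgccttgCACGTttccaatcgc
LOXL3: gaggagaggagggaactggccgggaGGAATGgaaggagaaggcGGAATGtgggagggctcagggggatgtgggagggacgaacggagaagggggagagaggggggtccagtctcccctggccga
P4HA1: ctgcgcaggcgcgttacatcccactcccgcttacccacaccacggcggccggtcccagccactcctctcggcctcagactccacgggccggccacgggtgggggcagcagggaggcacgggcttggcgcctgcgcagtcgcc

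The lysyl hydroxylases varied little. PLOD1 (chromosome 1, 11934205 to 11975538) hydroxylates lysine within the helix, and its level was 156 to 197 CPM at 1 kPa, 154 to 166 at 8 kPa and 153 to 167 at 30 kPa. Means were 175 ± 17.7, 159 ± 5.21 and 162 ± 6.58 CPM. The log2 fold changes were -0.13 (SE 0.066, adjusted p 0.187), 0.02 (adjusted p 0.900) and -0.11 (adjusted p 0.381), with 95% intervals that reached at most 0.274 in size for 8 against 1 kPa and 0.253 for 30 against 1 kPa. Without 1 kPa replicate 4 the 8 against 1 kPa change of PLOD1 passed (adjusted p 0.0434). PLOD3, which also adds glucose to galactosylated hydroxylysine, was at 184 to 208 CPM at 1 kPa, 169 to 188 at 8 kPa and 182 to 193 at 30 kPa. Its log2 fold changes were -0.12 (SE 0.0558, adjusted p 0.169), 0.07 (adjusted p 0.560) and -0.05 (adjusted p 0.673). The third lysyl hydroxylase, PLOD2, which hydroxylates the telopeptide lysines that form pyridinoline crosslinks, was nearly undetected. It had 0.0819 to 0.502 CPM, did not pass the low-count filter and was not tested.

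P4HA2 was the member with the lowest adjusted p in the test over all 3 stiffnesses (0.079), and it did not pass in the unpaired fit. With the replicate number as a block it was called for 8 against 1 kPa and for 30 against 1 kPa. P4HA2 is a catalytic subunit of prolyl 4-hydroxylase, and its gene lies on chromosome 5 (132191838 to 132295315, minus strand). Its level was 68.4, 82.5, 70.5 and 65.2 CPM at 1 kPa, 57.4, 69.4, 59.4 and 56.6 CPM on 8 kPa, then 54.2, 64.6, 60.0 and 60.6 CPM at 30 kPa. All 4 libraries at 30 kPa were below all 4 at 1 kPa, while the 8 kPa group overlapped the 1 kPa group through its replicate 2. Such a full separation in that direction was found for 6.06% of all tested genes between 30 and 1 kPa (5.33% in the other direction). The log2 fold change was -0.24 (SE 0.0831, adjusted p 0.0700) for 8 against 1 kPa, -0.02 (SE 0.0823, adjusted p 0.916) for 30 against 8 kPa and -0.26 (SE 0.0829, adjusted p 0.110) for 30 against 1 kPa. The 8 against 1 kPa change passed without 1 kPa replicate 4 (adjusted p 0.0352) or without 8 kPa replicate 2 (0.0326). Stiffness group accounted for 51.8% of its variance between libraries, the highest share of the 10 genes, where the median was 32.5% over all tested genes and 38.0% over those of at least 5 CPM.

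P4HA1, the more abundant of the pair (chromosome 10, 73007217 to 73096974), differed little between groups. Its level was 103 to 134 CPM at 1 kPa, 92.7 to 128 at 8 kPa and 97.9 to 117 at 30 kPa, with means of 114 ± 13.6, 108 ± 14.8 and 106 ± 8.16 CPM. The log2 fold changes were -0.09 (SE 0.0983, adjusted p 0.592), -0.03 (SE 0.0976, adjusted p 0.913) and -0.11 (SE 0.0981, adjusted p 0.589). P4HA3, the third catalytic subunit, was at 5.61 to 9.69 CPM, and its log2 fold changes were -0.24, -0.004 and -0.25 (adjusted p 0.318, 0.993 and 0.428).

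TGM2 (chromosome 20, 38127387 to 38166578, minus strand) had the highest level of the members. It was 487, 831, 687 and 325 CPM at 1 kPa, 555, 631, 577 and 648 CPM on 8 kPa, then 692, 734, 784 and 717 CPM at 30 kPa. The lowest and the highest of all 12 values were both at 1 kPa, and every 30 kPa library was above every 8 kPa library, as for 4.79% of all tested genes. Means were 582 ± 222, 603 ± 44.0 and 731 ± 39.0 CPM. The log2 fold change for 30 against 8 kPa was 0.28 (SE 0.198, adjusted p 0.475), and it was 0.24 (SE 0.069, adjusted p 0.191) among the 7 deep libraries. For 8 against 1 kPa it was 0.05 (SE 0.198, adjusted p 0.892), and for 30 against 1 kPa 0.33 (SE 0.198, adjusted p 0.394).

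SERPINH1 (chromosome 11, 75562056 to 75572783) was at 172 to 193 CPM at 1 kPa, 164 to 180 at 8 kPa and 157 to 180 at 30 kPa, with means of 185 ± 8.77, 170 ± 7.89 and 170 ± 10.0 CPM. It was 1 of the 3 steadiest members. The log2 fold changes were -0.12 (adjusted p 0.185), -0.004 (adjusted p 0.979) and -0.12 (adjusted p 0.279). No member had all its libraries apart between 8 and 1 kPa, where 9.41% of tested genes were fully higher and 7.36% fully lower at 8 kPa.

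**Figure D2:**
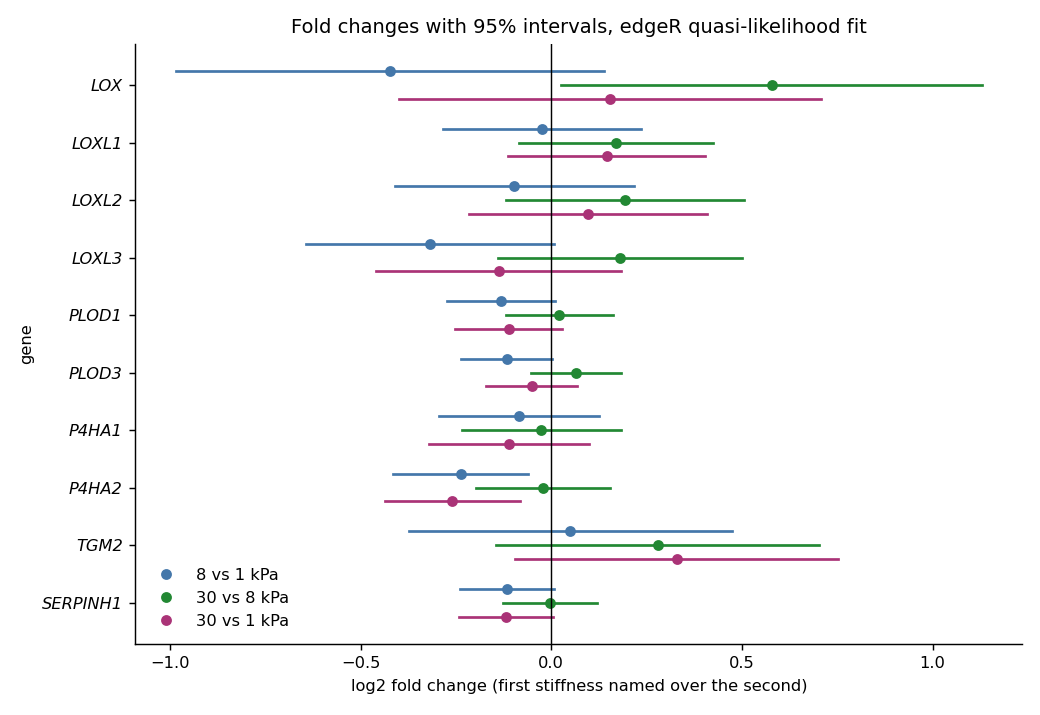
Log2 fold change (horizontal axis) of each of the 10 genes (vertical axis) in the 3 pairwise comparisons, with 95% intervals as lines, from the edgeR quasi-likelihood fit. Intervals of LOX and TGM2 are the widest, and those of PLOD1, PLOD3 and SERPINH1 the narrowest.

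Levels of different genes were compared per kilobase of all annotated exons of a gene, which can exceed the length of the transcripts present. By that measure TGM2 was the highest with a mean of 79.5 RPKM over the 12 libraries and P4HA2 the lowest with 7.54 RPKM. The place of P4HA2 depends on its exon length of 8502 bases (3093 for P4HA1). In CPM its mean, 64.1, was above those of LOX (55.6), LOXL3 (46.9) and LOXL1 (42.1). LOXL2 had 44.1, P4HA1 35.3, PLOD3 33.2, PLOD1 31.1, SERPINH1 27.9, LOXL1 11.6, LOXL3 10.8 and LOX 10.0 RPKM. The order TGM2 above LOXL2 held in 12 of 12 libraries, as did SERPINH1 above LOXL1 and PLOD1 above SERPINH1. LOXL1 was above LOXL3, LOXL3 above LOX and LOX above P4HA2 in 8 of 12 libraries each, so the order of the last 4 was not settled. P4HA1 stood above PLOD3 in 10 libraries. P4HA3 had 1.97, LOXL4 0.358 and PLOD2 0.0342 RPKM.

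**Figure D3:**
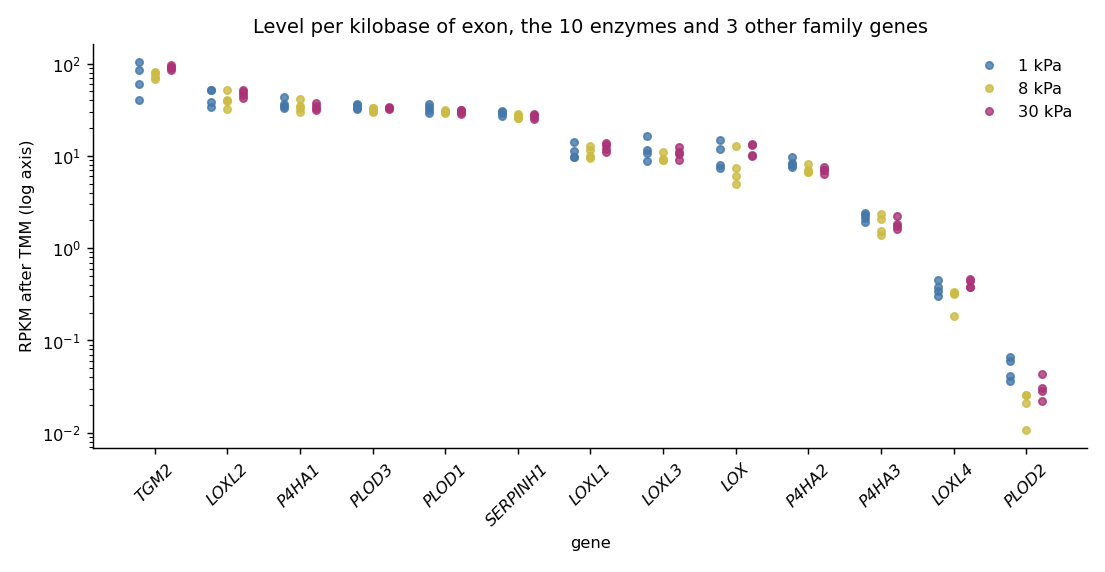
RPKM after TMM (logarithmic vertical axis) of the 10 genes and of P4HA3, LOXL4 and PLOD2, ordered by mean. Points are single libraries coloured by stiffness. TGM2 is highest at a mean of 79.5 RPKM and PLOD2 lowest at 0.0342 RPKM.

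The members split by how steady they were within a stiffness. The standard deviation of log2(CPM + 0.5) within groups was 0.449 for LOX, at percentile 98.8 of tested genes, and 0.351 for TGM2, at percentile 95.7. It was 0.254 for LOXL3, 0.250 for LOXL2 and 0.199 for LOXL1, and 0.129 for P4HA2, 0.0946 for PLOD1, 0.0743 for SERPINH1 and 0.0700 for PLOD3. The median was 0.148 over all tested genes and 0.110 over those of at least 5 CPM, so P4HA2 lay under the first and above the second, and PLOD1, SERPINH1 and PLOD3 lay under both. The highest library had 2.57 times the LOX level of the lowest at 8 kPa and 2.56 times the TGM2 level of the lowest at 1 kPa. P4HA1 was at 0.159. The 5 members with the largest spread were thus the 4 lysyl oxidases and TGM2, and the hydroxylases and SERPINH1 were steadier. In 1 kPa replicate 4 all 10 members were at the lowest level of their group. Replicate 2 of 1 kPa had the highest level for 8 of the 10, and 8 kPa replicate 1 the lowest for 8.

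**Figure D4:**
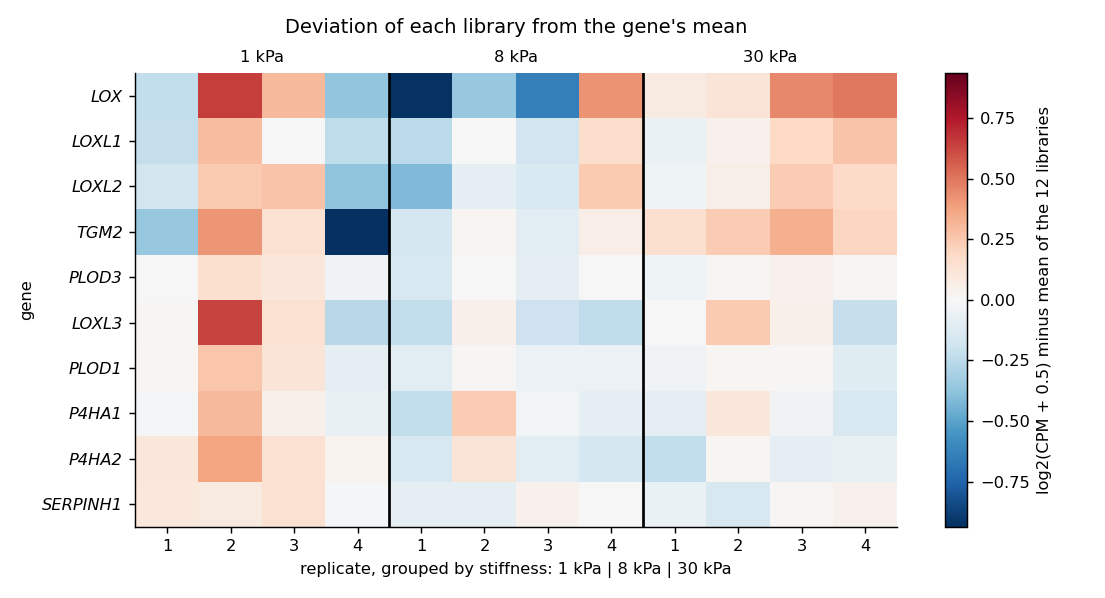
Deviation of log2(CPM + 0.5) of each of the 10 genes (vertical axis) from the gene's mean over the 12 libraries, in colour, for each replicate grouped by stiffness (horizontal axis). LOX deviates from -0.922 in 8 kPa replicate 1 to 0.648 in 1 kPa replicate 2, while PLOD3 and SERPINH1 stay near their means.

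Of 45 pairs of members, 18 passed an adjusted permutation p of 0.05 for their correlation across the 12 libraries, and none of these included SERPINH1. All 45 had a positive correlation of log2(CPM + 0.5), with a median Pearson's r of 0.497, and 42 were also positive on values centred within each stiffness. LOX and LOXL2 gave r = 0.916 and Spearman's rho = 0.846 (permutation p 7e-05 and 0.00097, and 0.00157 for r adjusted over the 45 pairs). The value was r = 0.913 without the 2 libraries farthest from the median of LOX, and r = 0.940 within groups. LOX and LOXL1 gave r = 0.888 and rho = 0.916 (permutation p 0.00015 and 8e-05, adjusted 0.00225 for r, r = 0.878 without the 2 farthest and 0.938 within groups). LOXL3 and PLOD1 gave r = 0.932 and rho = 0.879 (permutation p 7e-05 and 0.00037, adjusted 0.00157 for r, r = 0.816 without the 2 farthest). LOX and TGM2 gave r = 0.633 and rho = 0.825, LOX and P4HA1 0.313 and 0.203. TGM2 and SERPINH1 gave r = 0.0354. The libraries fall into 2 depth classes and differ in marker levels, and the share of correlated pairs among other genes was not computed.

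LOX, LOXL2 and PLOD3 were lower in libraries with higher adrenergic markers by both r and rho, a relation looked for after the levels had been seen. The summed level of the adrenergic markers (PHOX2A, HAND2, GATA2, GATA3, ISL1, TH and DBH) was 695, 459, 552 and 696 CPM at 1 kPa, 825, 751, 779 and 583 CPM on 8 kPa, then 681, 726, 686 and 632 CPM at 30 kPa. In each group the library with the highest LOX level had the lowest sum. Over 12 libraries LOX had r = -0.809 and rho = -0.853 with that sum (permutation p 0.0013 and 0.00087, adjusted over 20 relations 0.013 and 0.0165), r = -0.854 without the 2 farthest libraries and -0.944 within groups. All 10 members had a negative r, from -0.871 for PLOD3 to -0.416 for TGM2, and 5 passed the adjusted threshold for r (LOX, LOXL1, LOXL2, PLOD1 and PLOD3). The share of all tested genes related to this sum was not computed, so these counts have no background. LOXL1 (r = -0.674) missed the threshold by rho (adjusted p 0.069), and LOXL3 (r = -0.604, adjusted p 0.0742) missed it by both. The value for PLOD1, -0.732, was 0.0511 without the 2 farthest libraries and so rested on them. Without them r was also positive for LOXL3 (0.143), P4HA1 (0.134) and P4HA2 (0.199). Against the summed mesenchymal markers, 5420 to 6630 CPM, all 10 were positive and 2 passed for r, PLOD3 (r = 0.732) and SERPINH1 (r = 0.763). LOXL2 also passed by rho (0.713, adjusted permutation p 0.0462). Without the 2 farthest libraries r was 0.453 for PLOD3 and 0.621 for SERPINH1. It was then negative for LOXL3 (-0.457), PLOD1 (-0.118), P4HA1 (-0.123), P4HA2 (-0.0372) and TGM2 (-0.0713), so those positive values rested on the 2 libraries. The sums weigh abundant genes most, NT5E, PRRX1 and VIM (means 1718, 1609 and 1428 CPM) in the mesenchymal sum and HAND2 (303 CPM) in the adrenergic. TWIST1, also mesenchymal, was lowest in 1 kPa replicate 2 (75.3 CPM) and highest in 8 kPa replicate 1 (121.5 CPM), opposite to LOX. Relations of the members to single markers were not computed. Of the 6 adrenergic markers tested, 2 rose and none fell between 1 and 8 kPa, and 1 rose and none fell between 1 and 30 kPa, where 8.17% and 1.10% of all tested genes rose. The 2 that rose between 1 and 8 kPa, PHOX2A and GATA2, had overlapping groups there. Of the 7 mesenchymal markers, none was called between 1 and 8 kPa. Between 1 and 30 kPa 1 of them fell (PRRX1, -0.35, adjusted p 0.0144) and none rose, where 1.33% of all tested genes fell. The part of these markers in the level of any member was not tested, and in bulk RNA fewer cells of a type and less RNA per cell cannot be told apart.

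Among the 27 other genes of collagen modification, export and processing, 24 were tested, and 5 changed in a pairwise comparison. Between 1 and 8 kPa, 3 of the 24 fell and none rose, a share near the 13.8% of all tested genes that were called (5.60% lower), with a median log2 fold change of -0.08. COLGALT2, which adds galactose to hydroxylysine, fell from 233 ± 15.0 to 166 ± 11.2 CPM (-0.49 on the log2 scale, SE 0.0792, adjusted p 0.00656), with every 8 kPa library below every 1 kPa library, as for 7.36% of tested genes. Its levels at 30 kPa were 233, 184, 232 and 208 CPM (adjusted p 0.106 against 8 kPa), and it differed at 8 kPa from the mean of 1 and 30 kPa by -0.43 (adjusted p 0.0231). In that test 0 genes of the whole table were called when replicate 1 or 3 of 8 kPa, or replicate 1 of 30 kPa, was left out, so the call was lost there. MIA3 (TANGO1), which loads procollagen into export carriers, fell from 191 ± 8.49 to 163 ± 10.1 CPM (-0.22, SE 0.0545, adjusted p 0.0194). PCOLCE, an enhancer of procollagen C-propeptide cleavage, fell from 504 ± 25.2 to 436 ± 12.0 CPM (-0.21, SE 0.0544, adjusted p 0.0262). Among the 5 shallow libraries COLGALT2 had -0.42, MIA3 -0.35 and PCOLCE -0.18, with 8 kPa replicate 1 alone for its group. MIA3 lost its call without 1 kPa replicate 2 (adjusted p 0.053), 8 kPa replicate 1 (0.0593) or 8 kPa replicate 3 (0.0503). PCOLCE lost its call without 1 kPa replicate 1 (adjusted p 0.0719) or 2 (0.054), 8 kPa replicate 1 (0.0627) or 3 (0.0738), and also by library size alone (0.0535), with no low-count filter (0.0786), in the fit of the 8 libraries of the pair (0.062) or with depth class as a term (0.231). For 8 against 1 kPa, COLGALT2 kept its call whichever of the 12 libraries was left out, and lost it with depth class as a term (0.0896).

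Between 30 and 8 kPa none of the 24 changed (median 0.04), with 7 at an unadjusted p under 0.05 in the edgeR test (background 17.9%) and 3 called by DESeq2. Between 1 and 30 kPa 1 rose and 1 fell (median -0.07), where 1.10% and 1.33% of all tested genes did. ADAMTS2, the procollagen N-propeptidase, rose from 1.31 ± 0.325 to 3.21 ± 0.651 CPM (1.30, SE 0.208, adjusted p 0.00822), a low level in all libraries. TLL1, a C-propeptidase related to BMP1, fell from 9.29 ± 2.75 to 3.27 ± 1.24 CPM (-1.51, SE 0.257, adjusted p 0.0122). Both were fully apart between the 2 groups, as were 5.33% of tested genes in the higher and 6.06% in the lower direction. With depth class as a term ADAMTS2 had 1.05 (adjusted p 0.493) and TLL1 -1.60 (adjusted p 0.444), and TLL1 lost its call without 30 kPa replicate 3 (adjusted p 0.0601).

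**Figure D5:**
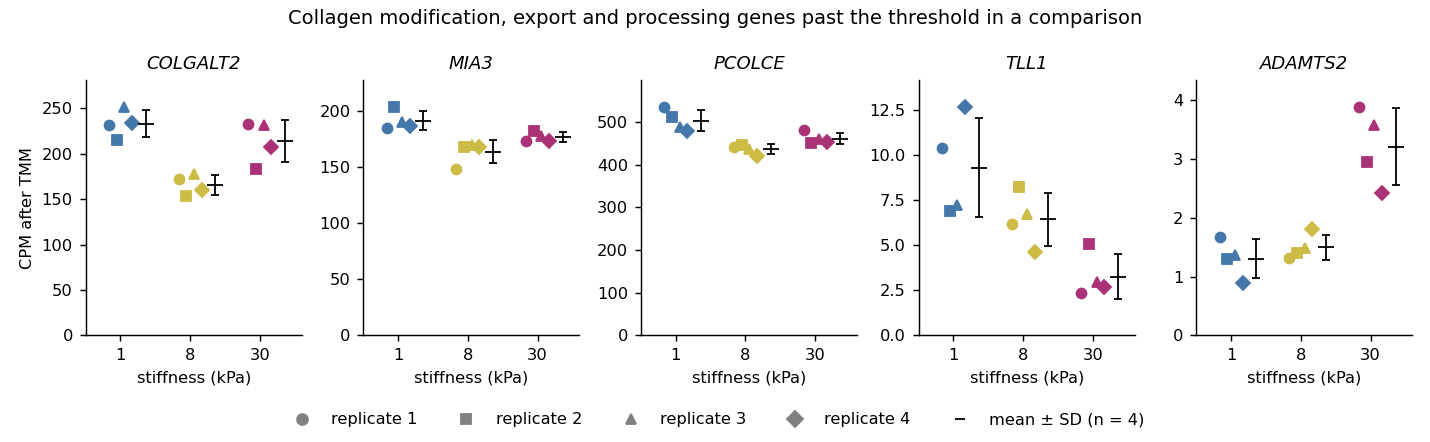
CPM after TMM (vertical axis, from 0) by stiffness in kPa for the 5 other collagen genes that passed the threshold in a pairwise comparison. Symbols are libraries and black bars mean ± SD of 4. COLGALT2 is lowest at 8 kPa, TLL1 lowest and ADAMTS2 highest at 30 kPa.

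The substrates of these enzymes were measured beside them. COL1A1, the main chain of type I collagen, was at 651 ± 120, 612 ± 133 and 756 ± 90.8 CPM at 1, 8 and 30 kPa, and its log2 fold change was -0.09 (adjusted p 0.725) for 8 against 1 kPa, 0.31 (adjusted p 0.297) for 30 against 8 kPa and 0.22 (adjusted p 0.467) for 30 against 1 kPa. COL1A2, its partner chain, was at only 2.81, 3.78 and 3.00 CPM. ELN, the elastin gene, was at 8.69, 9.21 and 9.68 CPM (adjusted p 0.693, 0.762 and 0.521). Of the 12 substrate genes, COL4A1 fell between 1 and 8 kPa (-0.20, adjusted p 0.0476) and between 1 and 30 kPa (-0.27, adjusted p 0.0427). COL3A1 fell between 1 and 30 kPa (-0.52, adjusted p 0.0159), from 856 ± 111 to 599 ± 47.1 CPM. Of all tested genes 5.60% fell between 1 and 8 kPa and 1.33% between 1 and 30 kPa. None of the 12 changed between 30 and 8 kPa (1 had an unadjusted p under 0.05 in the edgeR test, background 17.9%). The COL4A1 calls held in 3 and 4 of 12 fits with 1 library left out (8 and 30 kPa against 1 kPa), and the COL3A1 call was lost without 30 kPa replicate 3 (adjusted p 0.062) or 4 (0.0531), and with depth class as a term (0.505).

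Since LOX and P4HA1 are known hypoxia targets, 12 other hypoxia-responsive genes were counted. Between 1 and 8 kPa, BNIP3, a mitophagy gene, rose (0.27, adjusted p 0.0122) and KDM3A, a histone demethylase, fell (-0.15, adjusted p 0.0341). Of all tested genes 8.17% rose and 5.60% fell there. BNIP3 lost its call without 8 kPa replicate 3 (adjusted p 0.0532), and the KDM3A call held in 6 of 12 fits with 1 library left out. None of the 12 changed between 30 and 8 kPa or between 30 and 1 kPa in the edgeR test, where 3 and 5 had an unadjusted p under 0.05. The background for that was 17.9% and 18.9% of all tested genes. The 3 genes whose log2(CPM + 0.5) was most like that of LOX across the 12 libraries, among 11673 genes of at least 5 CPM, were MAGEC1 (r = 0.983), SPEG (r = 0.983) and TMEM185B (r = 0.975).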

How the data were processed

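The authors deposited 1 table of raw counts per gene for the 12 SK-N-SH RNA-seq libraries. Reads were aligned with HISAT2 to GRCh38, per the submitters' processing notes. How reads were assigned to genes (tool, annotation, strand) is not given in the sources used here. Antisense reads may therefore be mixed with a gene's own, and 8 of the 10 members overlap an antisense gene in GENCODE v29. Of 60664 identifiers, 42028 were matched to a symbol. Counts were filtered with filterByExpr (17960 genes kept), scaled by TMM and fitted in edgeR 4.0.16 (R 4.3.3) on all 12 libraries with stiffness as the only term. The quasi-likelihood F-test was used, with Benjamini-Hochberg adjustment over all tested genes at 0.05. Adjusted p-values of genes come from this fit except where DESeq2 is named. SE is the size of the log2 fold change divided by the root of F. RPKM is CPM per kilobase of the merged exons of all transcripts of a gene in GENCODE v29. Correlations used 100000 permutations. The test steps were checked on simulated data. Replicate libraries of a group differed by more than sampling noise (chi-square per gene of 2.62 or more).

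The members, lists and alternatives were chosen with earlier results of these data known. Named genes are all 10 members, PLOD2, P4HA3 and LOXL4, the wider-list genes past the threshold (at most 4 per comparison), COL1A1, COL1A2 and ELN, up to 3 hypoxia genes and the 3 genes most like LOX. 1 marker gene of the adrenergic list is not reported here and was left out of its sums and counts. COL3A1 and COL4A1 were named after their values were seen. Alternatives were median-ratio scaling, library size alone, no filter, a stricter filter, DESeq2 1.42.0, limma-voom (limma 3.58.1), the 8 libraries of each pair, a replicate block, depth class (under or over 20 M counts) as a term or within 1 class, and leaving out each library.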

Additional observations from a re-analysis of the deposited data

Results flagged for a closer look

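In 4 of 75 groups of 4 libraries checked, 1 library stood apart from the other 3 by more than Dixon's 95% criterion for 4 samples, where chance flags about 1 in 20 groups. LOXL3 in 8 kPa replicate 2 was at 47.6 CPM, above the other 3. LOXL4 in 8 kPa replicate 3 was at 0.664 CPM, below the other 3. MIA3 in 8 kPa replicate 1 was at 148 CPM, below the other 3. ELN in 1 kPa replicate 4 was at 10.9 CPM, above the other 3.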

How the results depend on the processing

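No member was called under median-ratio scaling, library size alone, either other filter, DESeq2, limma-voom, the 8 libraries of a pair, the depth term or the deep libraries alone. Leaving out 1 library gave 0 to 3 called members for 8 against 1 kPa and 0 to 1 for 30 against 8 kPa. Of 650 member fold changes under alternatives, 618 kept their direction and side of the threshold, 9 became calls and 23 changed sign. These were LOXL1 for 8 against 1 kPa (0.00467 by library size alone, -0.112 to 0.0994 over left-out libraries), TGM2 for 8 against 1 kPa (-0.0694 with the depth term, -0.0614 among shallow libraries, -0.154 to 0.27) and SERPINH1 for 30 against 8 kPa (0.00398 with the stricter filter, 4.77e-05 with 8 libraries, -0.028 to 0.0357). Over left-out libraries P4HA1 ran from -0.0864 to 0.0682 and P4HA2 from -0.0566 to 0.0498 for 30 against 8 kPa, and LOXL2 from -0.0154 to 0.19 and LOXL3 from -0.261 to 0.0579 for 30 against 1 kPa. With the depth term, 30 against 1 kPa gave -0.658 for LOX, -0.116 for LOXL1 and -0.331 for LOXL2. The cause was not tested.

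Counts over all genes moved more. For 8 against 1 kPa they were 1068 with 8 libraries, 0 with the depth term (4299 at an unadjusted p under 0.05, edgeR) and 534 to 3563 over left-out libraries. For 30 against 8 kPa they were 330 with no filter, 414 by DESeq2, 61 with 8 libraries and 0 to 1026. For 30 against 1 kPa they were 263 by library size alone, 875 with no filter, 1068 by DESeq2, 0 with the depth term and 50 to 676. For any stiffness they were 3090 by DESeq2, 0 with the depth term and 230 to 3234, and for 8 kPa against the mean of 1 and 30 kPa 2263 by DESeq2 and 0 to 2870. Of the 24 tested collagen genes, 0 were called for 8 against 1 kPa with the depth term and 1 to 5 over left-out libraries. For 30 against 8 kPa there were 3 with no filter, 3 by DESeq2, 1 with 8 libraries and 0 to 3, and for 30 against 1 kPa 0 with the depth term and 1 to 3.

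Whether the replicate numbers pair the libraries was not settled. Of 12 same-numbered pairs, 5 had a correlation of deviations over 0.1 (range -0.118 to 0.336). Pairs with different numbers ran from -0.262 to 0.216. Of 24 best matches, each picked among the 4 libraries of another group, 14 had the same number. A random pick would have the same number 1 time in 4. The main fit treats the libraries as unpaired, and the calls of some members depend on that choice. With the replicate number as a block, 2 members were called for 8 against 1 kPa (P4HA2, adjusted p 0.0103, and LOXL3, 0.0323), 1 for 30 against 1 kPa (P4HA2, 0.0154) and 0 for 30 against 8 kPa. Over all 17960 genes the block gave 3273 calls for 8 against 1 kPa, 40 for 30 against 8 kPa and 974 for 30 against 1 kPa. It gave 2626 for any stiffness and 2096 for 8 kPa against the mean, and 2 collagen genes for 30 against 8 kPa. LOXL3, PLOD1, P4HA1 and P4HA2 were highest in replicate 2 at all 3 stiffnesses.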
